A study of Mus musculus with 63 samples.

Results

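Scg5, 5 granins and 4 genes of prohormone processing, 10 genes in all of 55401 in the gene count table, were followed across strain, ethanol, fear conditioning and sex in mouse dorsal hippocampus. The members were taken by symbol: Scg5, its partner Pcsk2, Pcsk1 and its inhibitor Pcsk1n, Cpe, and the granins Chga, Chgb, Scg2, Scg3 and Vgf. All 10 were among the 19974 genes that passed the filter on low counts. The set was chosen by the strain contrast of these same counts, in which Scg5 stood out, so every strain value of these genes is given as a description, with no test.

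Neurons store neuropeptides and neurotrophins in dense-core vesicles, which bud from the trans-Golgi network with granins packed inside and release their content on strong stimulation. Prohormones travel in the same vesicles and are cut at pairs of basic residues by the convertases PC1/3, encoded by Pcsk1, and PC2, encoded by Pcsk2, after which carboxypeptidase E, encoded by Cpe, trims the exposed basic residues. Scg5 encodes 7B2, a small secretory protein that binds proPC2, keeps it from aggregating and is needed for its maturation, while its carboxy-terminal peptide inhibits PC2. Pcsk1n encodes proSAAS, which holds an inhibitory peptide for PC1/3 in the same way.

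RNA came from adolescent DBA/2J and C57BL/6J mice, 2 inbred strains, of both sexes. Mice received 1.5 g/kg ethanol (EtOH) or saline as an acute injection, and were fear conditioned (FC) or were controls without conditioning (noFC). Strain, sex, conditioning and drug crossed into 16 groups, 15 with 4 libraries each and 1 (C57BL/6J males, FC, saline) with 3, which makes 32 DBA/2J and 31 C57BL/6J libraries. The labels do not say that each library is a separate animal, so p-values measure the spread between these libraries.

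Total counts per library ranged from 21027659 to 61631742 (median 26379948). Each level is a CPM, a read count scaled by TMM to the size of its library, and each difference is a log2 ratio with its standard error (SE) from an edgeR quasi-likelihood fit over all groups. Sample titles carried numbers of unstated meaning, and the libraries with the 8 lower and the 8 higher numbers, 31 and 32 of them, are named round 1 and round 2. The titles also carried letters from A to D, of unstated meaning too. In round 1 saline libraries had A or B and ethanol libraries C or D, and in round 2 the reverse. Markers of the dentate gyrus, CA1 and CA3 were present in every library. The summed level of the 7 choroid plexus markers, which belong to tissue lining the ventricles, ran from 30.7 to 10735 CPM in DBA/2J and from 38.8 to 11973 CPM in C57BL/6J libraries.

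Scg5 (ENSMUSG00000023236, GRCm38 chr2:113776362-113829121, minus strand) was the member that separated the strains. Its lowest, median and highest levels were 299, 358 and 409 CPM in the 32 DBA/2J libraries, against 94.6, 110.4 and 128 CPM in the 31 C57BL/6J libraries. The lowest DBA/2J library lay above the highest C57BL/6J library, and the means of 359 ± 28.9 and 111 ± 7.18 CPM (SD) were in a ratio of 3.24. On the log2 scale the difference was 1.70 (SE 0.03), larger in size than that of 97.0% of the genes tested. The ratio was seen at every combination of the other factors: the 8 DBA/2J groups averaged between 340.3 CPM (male, noFC, EtOH) and 383 CPM (female, FC, saline), and the 8 C57BL/6J groups between 106 CPM (male, FC, EtOH) and 117 CPM (female, FC, saline). The log2 difference was 1.67 (SE 0.04) in round 1 alone and 1.71 (SE 0.03) in round 2, and 1.71 (SE 0.02) with the choroid plexus markers as a covariate.

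**Figure D1:**
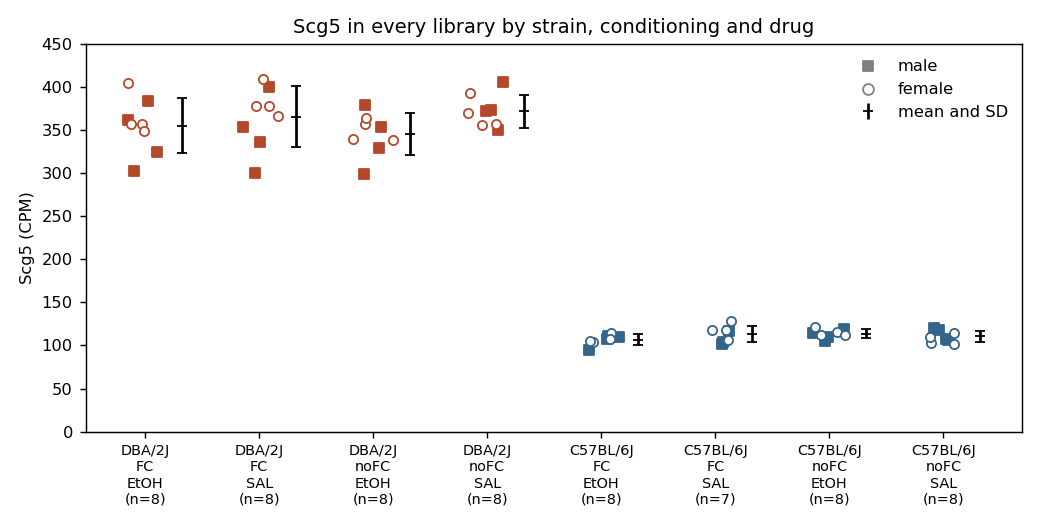
Scg5 level (CPM, y axis) in each of the 63 libraries, by strain, conditioning and drug (x axis), with males as squares and females as circles, and the mean and SD of each column beside the points. DBA/2J libraries lie between 299 and 409 CPM and C57BL/6J libraries between 94.6 and 128 CPM, with no overlap.

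In the estimated transcript counts both annotated forms of Scg5 were higher in DBA/2J, and nearly all counts lay on the protein-coding form. Scg5-201 averaged 336 ± 24.4 CPM of estimated counts in DBA/2J and 102 ± 5.97 CPM in C57BL/6J libraries (SD). The other annotated form, a processed transcript, averaged 5.62 ± 0.950 CPM in DBA/2J and 2.17 ± 0.494 CPM in C57BL/6J. Its lowest DBA/2J library (4.11 CPM) lay above its highest C57BL/6J library (3.11 CPM). Scg5-201 made up 98.4% ± 0.225 of the counts of the gene in DBA/2J and 97.9% ± 0.408 in C57BL/6J.

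The 220 bases before the annotated transcript of Scg5 are shown because the strain difference concerns this gene and the granin family is known for cAMP response elements (TGACGTCA) near its starts (RefSeq, GRCm38.p6, chr2:113829122-113829341, minus strand, 250 to 31 bases before the RefSeq start). Capitals mark the single match to TGACG, the core of that element, 175 bases before the start.
Scg5: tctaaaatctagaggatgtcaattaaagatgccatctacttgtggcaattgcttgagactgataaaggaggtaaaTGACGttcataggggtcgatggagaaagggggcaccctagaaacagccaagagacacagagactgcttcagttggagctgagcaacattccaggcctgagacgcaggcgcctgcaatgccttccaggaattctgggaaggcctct

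This is the reference sequence, which derives from C57BL/6J, and the DBA/2J sequence was not used here. The full element TGACGTCA reads the same on both strands. Of the 250 bases before the RefSeq start, 8 of the 10 members had an entry, all but Vgf and Cpe. Scg2, Chgb and Pcsk1 each had 1 full element in that window, shown here with 8 bases on either side and the element in capitals (GRCm38.p6, chr1:79440079-79440102, minus strand, chr2:132781562-132781585, plus strand, and chr13:75089771-75089794, plus strand).
Scg2: tgagccggTGACGTCAgcgtggaa
Chgb: ctgctccgTGACGTCAgggctgag
Pcsk1: ggtagatcTGACGTCAagagatgg

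Over all 32544 RefSeq windows of that length, 506 (1.55%) held the full element on either strand, and 5808 (17.8%) held TGACG on either strand, which counts the full elements too. Scg3, Chga and Pcsk2 had 1 core match each like Scg5, Pcsk1 had 1 beside its full element, and Pcsk1n had none. These windows count from the RefSeq start, which can differ from the GENCODE M21 start used for the gene positions. By GENCODE M21, Scg2 starts at 79440120 and Chgb at 132781278, so their full elements lie inside the annotated genes. The element of Pcsk1 lies before its GENCODE start at 75089826. A match of letters is a description and not a measured binding site.

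The nearest neighbours of Scg5 differed less between the strains, and not all in the same direction. The nearest tested gene on one side was Arhgap11a, which lies 2.37 kb away. It averaged 3.25 ± 0.598 CPM in DBA/2J and 4.29 ± 0.597 CPM in C57BL/6J (SD), a log2 difference of -0.40 (SE 0.05, edgeR adjusted p = 6.26e-09). On the other side Grem1, which encodes a secreted BMP antagonist and lies 17.72 kb away, averaged 12.4 ± 3.04 CPM in DBA/2J and 9.24 ± 2.16 CPM in C57BL/6J, a log2 difference of 0.43 (SE 0.08, edgeR adjusted p = 1.18e-05). No tested gene overlapped Scg5. Within 500 kb, the fit called 4 of the 9 other tested genes higher in DBA/2J and 3 lower, where 50% of all genes were called between the strains. Of these 9, the values farthest from 0 belonged to a pair of noncoding transcripts and had opposite signs. C130080G10Rik averaged 0.469 ± 0.151 CPM in DBA/2J and 0.155 ± 0.0830 CPM in C57BL/6J, a log2 difference of 1.60 (SE 0.15), and A530058N18Rik (ENSMUSG00000087694) averaged 1.11 ± 0.292 CPM in DBA/2J and 3.24 ± 0.708 CPM in C57BL/6J, a log2 difference of -1.55 (SE 0.08). Both were named after their values were seen. Each overlaps another gene entry listed as A530058N18Rik on the same strand, so their counts are uncertain.

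**Figure D2:**
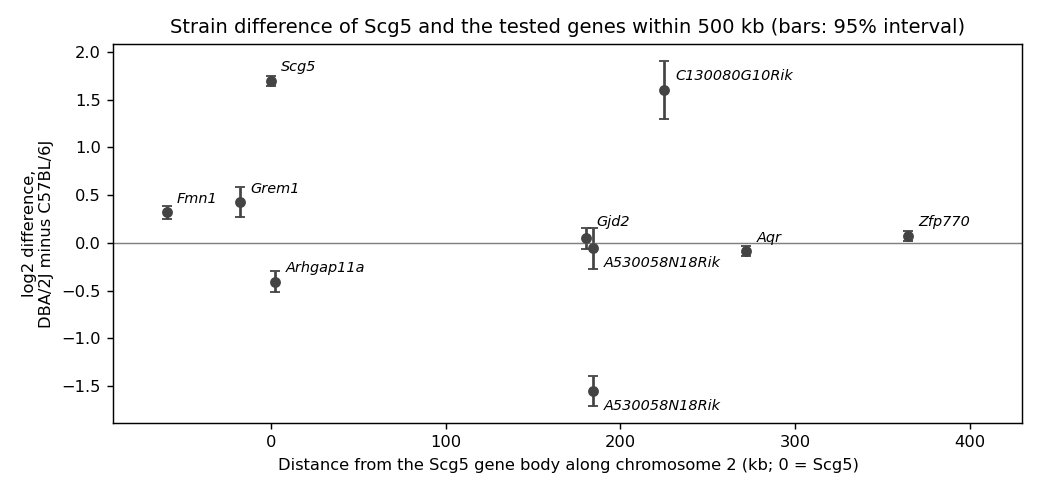
Log2 strain difference (DBA/2J minus C57BL/6J, y axis) of Scg5 and the tested genes within 500 kb, by distance from the Scg5 gene body in kilobases (x axis), with bars for 95% intervals. Scg5 stands at 1.70 between Grem1 at 0.43 and Arhgap11a at -0.40.

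The other 9 members differed far less between the strains than Scg5 did. As a description, the threshold of the tested comparisons (adjusted p under 0.05) was also set on all 10 genes, Scg5 included. By it 4 members, Scg5 among them, were higher in DBA/2J, where 25.5% of all genes tested were. Another 2 were lower, where 24.5% were, 50% in all. Nothing is read from that count. Pcsk2, the enzyme that 7B2 serves, had a lowest, median and highest level of 164, 224 and 259 CPM in DBA/2J, against 224, 269 and 315.9 CPM in C57BL/6J. Its log2 difference was -0.24 (SE 0.03), opposite in sign to that of Scg5, and 17 of 32 DBA/2J libraries lay below every C57BL/6J library. Cpe, the highest of the 10 genes, had 2127, 2295 and 2544 CPM in DBA/2J and 2272, 2547 and 2852 CPM in C57BL/6J, a log2 difference of -0.15 (SE 0.02), with 12 DBA/2J libraries below every C57BL/6J library.

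Pcsk1n had 386, 449.8 and 524 CPM in DBA/2J, against 332, 409 and 535 CPM in C57BL/6J, a log2 difference of 0.16 (SE 0.04) with ranges that overlapped. Pcsk1, the convertase it inhibits, had 16.04, 21.3 and 57.1 CPM in DBA/2J and 13.4, 18.2 and 36.6 CPM in C57BL/6J, a log2 difference of 0.21 (SE 0.09). This was the most variable member, with a coefficient of variation of 32.9% in DBA/2J and 27.9% in C57BL/6J, against at most 13.2% for any other member in either strain.

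The granins lay at nearly the same level in both strains. Chgb, a granin that drives granule formation in endocrine cells, averaged 597 ± 63.8 CPM in DBA/2J and 591 ± 65.8 CPM in C57BL/6J (SD, log2 difference 0.01, SE 0.04). Scg3, which tethers chromogranin A to the granule membrane, averaged 284 ± 19.97 CPM in DBA/2J and 279 ± 15.3 CPM in C57BL/6J (0.03, SE 0.02). Scg2, the precursor of secretoneurin, averaged 179.8 ± 16.5 CPM in DBA/2J and 179 ± 15.2 CPM in C57BL/6J (0.01, SE 0.03). Vgf, a neurotrophin-induced precursor of several peptides, averaged 154 ± 19.1 CPM in DBA/2J and 159 ± 20.9 CPM in C57BL/6J (-0.04, SE 0.04). Chga, the precursor of vasostatin and catestatin, averaged 102 ± 7.92 CPM in DBA/2J and 96.2 ± 7.83 CPM in C57BL/6J (0.08, SE 0.03). For each of these 5 granins the ranges of the strains overlapped.

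Some lists of cell type markers differed between the strains, where 50% of all genes were called. The 6 oligodendrocyte markers all fell in DBA/2J relative to C57BL/6J, with a summed level of 4901 to 13736 CPM in DBA/2J and 7973 to 17327 CPM in C57BL/6J, and of the 6 dentate gyrus markers 5 fell and 1 rose, with 286 to 573 CPM in DBA/2J and 399 to 627 CPM in C57BL/6J. Calls higher and lower in DBA/2J were 0 and 2 of 4 CA1 markers and 1 and 2 of 4 CA3 markers. For interneurons they were 3 and 1 of 7, and for astrocytes 2 and 1 of 5. For microglia they were 1 and 1 of 4, and for neuronal markers 0 and 1 of 5. None of the choroid plexus or thalamus markers was called. The part of any of these lists in the lower Pcsk2 and Cpe was not tested. In whole tissue, fewer cells of a type and less RNA per cell cannot be told apart.

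Divided by exonic length, levels could be ordered between genes. In DBA/2J the order of mean CPM per kilobase was Cpe (883), Scg5 (229), Chgb (218), Pcsk1n (206), Scg3 (104), Scg2 (71.5), Vgf (51.9), Chga (37.0), Pcsk2 (28.5) and Pcsk1 (4.10). In C57BL/6J it was Cpe (979), Chgb (216), Pcsk1n (186), Scg3 (102), Scg2 (71.3), Scg5 (70.7), Vgf (53.5), Chga (34.9), Pcsk2 (33.7) and Pcsk1 (3.52). Scg5 thus stood second in DBA/2J, where its range overlapped that of Chgb, and sixth in C57BL/6J, where its range overlapped those of its neighbours Scg2 and Vgf. In both strains the range of Cpe lay above and that of Pcsk1 below all others, Scg3 stood clear of its neighbours, and neighbours in the order from Scg2 down to Pcsk2 overlapped.

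**Figure D3:**
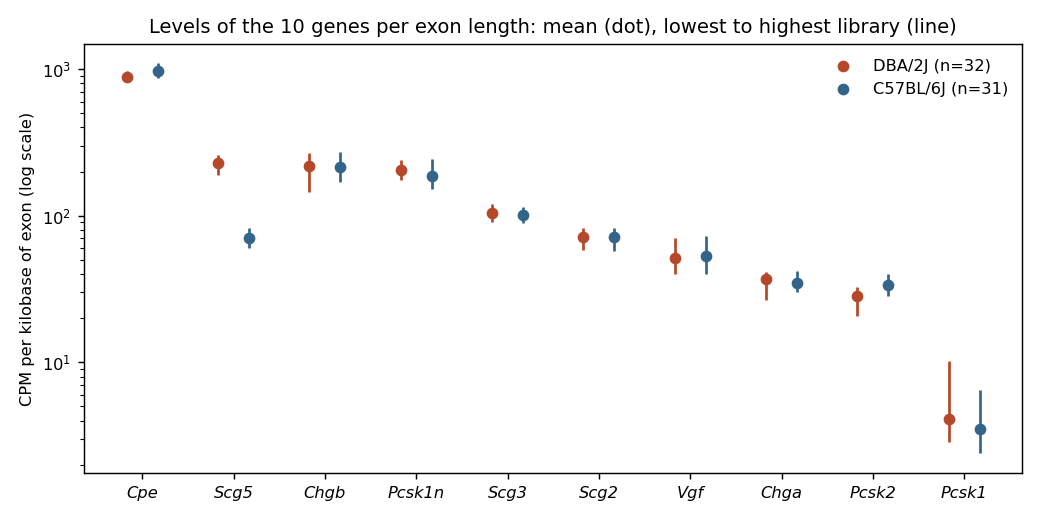
Mean level of the 10 genes in CPM per kilobase of exon (log scale, y axis) in DBA/2J and C57BL/6J libraries, with lines from the lowest to the highest library. Scg5 shows 229 in DBA/2J and 70.7 in C57BL/6J, while the ranges of the strains overlap for each of the other genes.

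The effect of ethanol on vesicle cargo and its processing was tested in each strain and over both. No member was called in any of these comparisons with edgeR. Over both strains, 0 of 10 members passed, where 0.546% of all genes did, 0 had an unadjusted p under 0.05, and DESeq2 called 0. In DBA/2J, 0 of 10 passed (background 0.295%), 1 had an unadjusted p under 0.05, and DESeq2 called 0. In C57BL/6J, 0 of 10 passed (background 0.0901%), with 0 at an unadjusted p under 0.05 and 0 by DESeq2. The difference of the ethanol effect between the strains was called for 0 members (background 0.01%), with 0 at an unadjusted p under 0.05 and 0 by DESeq2.

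The member with the unadjusted p under 0.05 was Scg5 in DBA/2J. Its lowest, median and highest levels were 299, 355 and 405 CPM in the 16 ethanol libraries, against 300.0, 371 and 409 CPM in the 16 saline libraries. The drug groups overlapped over nearly their whole range, and the log2 difference was -0.07 (SE 0.04, edgeR adjusted p = 0.573). Round 1 alone gave -0.16 (SE 0.05, edgeR adjusted p = 0.134) and round 2 gave 0.01 (SE 0.04, edgeR adjusted p = 0.974), so the difference was larger in round 1 and had the opposite sign in round 2. Title letters split by drug within each round and swapped between rounds, so drug and letter cannot be told apart within a round. In C57BL/6J the levels were 94.6, 110.1 and 122 CPM in ethanol and 102, 110.4 and 128 CPM in saline libraries, a log2 difference of -0.01 (SE 0.04, edgeR adjusted p = 1). The strains' ethanol effects on Scg5 differed by -0.06 (SE 0.05, edgeR adjusted p = 1), by -0.18 in round 1 and by 0.09 in round 2.

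The intervals show what size of ethanol effect these data allow. Over both strains the 95% intervals of the 9 members other than Pcsk1 lay between -0.11 and 0.08 on the log2 scale, and that of Pcsk1 ran from -0.12 to 0.23. Vgf, often used as an activity-regulated gene, had 122, 156 and 209 CPM in DBA/2J ethanol and 119, 156 and 179.6 CPM in DBA/2J saline libraries, with like medians, and a log2 difference of -0.02 (SE 0.04) over both strains. In the same fit, of 16 listed activity genes, 7 were called lower and 1 higher with ethanol over both strains, where 0.546% of all genes were called. Among them was Arc, which encodes a synaptic scaffold induced by firing, at -0.47 (SE 0.05, edgeR adjusted p = 2.27e-08). The list was chosen with earlier results of these data known, so its calls are no independent control.

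Fear conditioning was compared with no conditioning in the same way, and again no member was called with edgeR. Over both strains, 0 of 10 members passed (background 0.02%), 0 had an unadjusted p under 0.05 and DESeq2 called 0. Within each strain, 0 of 10 passed and 0 of all 19974 genes did (background 0% in each), while 670 genes in DBA/2J and 786 in C57BL/6J had an unadjusted p under 0.05, none of them members, and DESeq2 called 0 genes in DBA/2J and 6 in C57BL/6J, none of them members. The conditioning effect differed between the strains for 0 members by edgeR and by DESeq2 (background 0%), with 0 at an unadjusted p under 0.05.

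Pcsk1 had the largest conditioning value. Its lowest, median and highest levels were 16.04, 21.3 and 57.1 CPM in FC and 16.2, 21.1 and 28.6 CPM in noFC libraries of DBA/2J, and 13.4, 18.2 and 36.6 CPM in FC and 13.4, 17.5 and 30.6 CPM in noFC libraries of C57BL/6J. The groups overlapped and differed mainly in their highest libraries. The log2 difference over both strains was 0.12 (SE 0.09, edgeR adjusted p = 1), and 0.07 (SE 0.08) without the DBA/2J male FC ethanol library that held the 57.1 CPM. Vgf followed at 0.06 (SE 0.04, edgeR adjusted p = 1), and at 0.04 without the same library, and the other 8 members lay between -0.01 and 0.02. Of the 16 activity genes, listed with earlier results known, 3 were called higher with conditioning over both strains and none lower (background 0.02%). Among them was Fos at 0.38 (SE 0.06, edgeR adjusted p = 0.000478), the immediate early transcription factor gene. In DBA/2J all 7 choroid plexus markers were higher in FC libraries, with a median log2 difference of 1.68, none called and 4 at an unadjusted p under 0.05. These markers belong to the same tissue, so they are not separate observations. Their summed level ran from 30.7 to 10735 CPM (median 1132) in FC and from 37.2 to 6768 CPM (median 102) in noFC libraries of DBA/2J. In C57BL/6J 3 of the 7 were higher, with a median log2 difference of -0.01, and the sum ran from 50.9 to 5187 CPM (median 146) in FC and from 38.8 to 11973 CPM (median 116) in noFC libraries. With these markers as a covariate no member was called either, and Vgf stood at 0.10 (SE 0.04). Whether the ethanol effect depended on conditioning was tested too: 0 of 10 members and 0 of all genes were called with edgeR (background 0%) and 0 with DESeq2, and 592 genes, none of them members, had an unadjusted p under 0.05.

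Between males and females, 0 of 10 members were called with edgeR, where 0.2% of all genes were, and 0 with DESeq2, with 1 at an unadjusted p under 0.05. That member was Scg2, with 144, 177 and 207 CPM in 31 male and 158, 183 and 206 CPM in 32 female libraries, a log2 difference of -0.07 (SE 0.03, edgeR adjusted p = 0.789). Round 1 alone gave 0.01 (SE 0.03, edgeR adjusted p = 0.99) and round 2 gave -0.15 (SE 0.05, edgeR adjusted p = 0.277), so the sign differed between the rounds. The strain difference was also compared between males and females, a contrast in which 0 of 10 members and 0 of all genes were called with edgeR (background 0%), 1 member had an unadjusted p under 0.05, and DESeq2 called 3 genes, none of them members. The member was Vgf, which averaged 155 ± 22.8 CPM in male and 154 ± 15.5 CPM in female DBA/2J libraries, and 148 ± 14.7 CPM in male and 169 ± 21.5 CPM in female C57BL/6J libraries (SD). The difference of differences was 0.18 (SE 0.09, edgeR adjusted p = 1), and 0.11 (SE 0.08, edgeR adjusted p = 0.861) with the choroid plexus markers as a covariate. In the same contrast all 7 of those markers were negative, with a median of -1.67, none called and 1 at an unadjusted p under 0.05. Their summed level ran from 30.7 to 10735 CPM (median 138) in male and from 37.2 to 7391 CPM (median 1442) in female DBA/2J libraries, and from 38.8 to 5187 CPM (median 351) in male and from 50.9 to 11973 CPM (median 103) in female C57BL/6J libraries. For Scg5 it was -0.03 (SE 0.05).

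**Figure D4:**
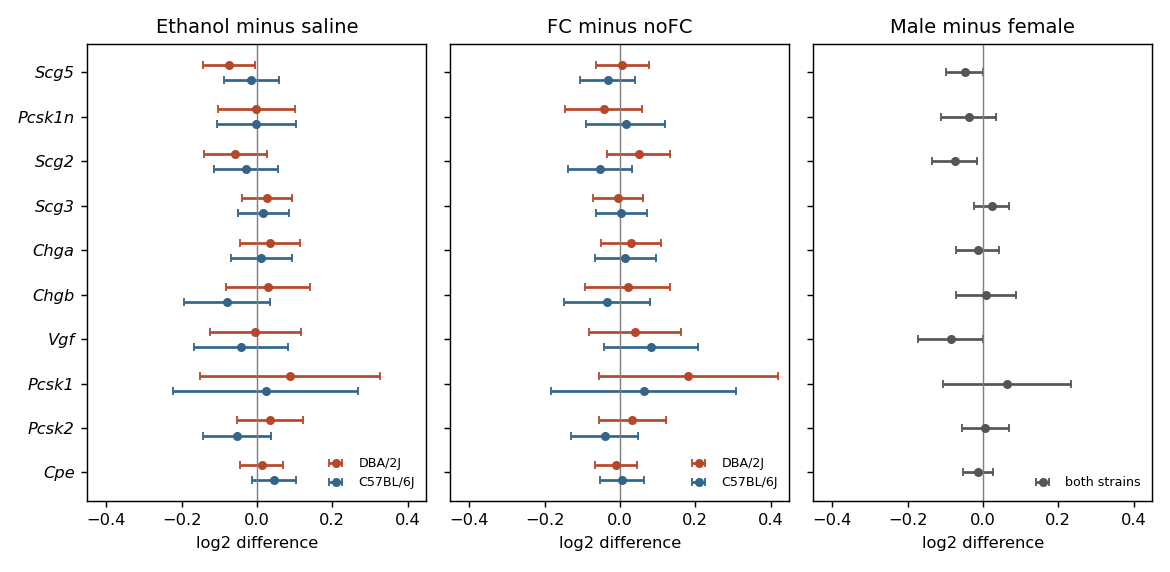
Log2 differences of the 10 genes (x axis) for ethanol minus saline and FC minus noFC in each strain, and for male minus female over both strains, with bars for 95% intervals. Points lie near 0 in all 3 panels, and Pcsk1 has the widest intervals, from -0.15 to 0.33 for ethanol in DBA/2J.

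Other genes of the same pathway were taken from 3 lists. Of 17 other convertases and processing enzymes, edgeR called 4 higher in DBA/2J and 3 lower, where 50% of all genes were called. They included Rnpep, an aminopeptidase gene, at -0.32 (SE 0.02), Pcsk4, a convertase gene known from germ cells, at 0.36 (SE 0.08), Qpctl, a glutaminyl cyclase gene of the Golgi, at 0.14 (SE 0.02), and Furin, the convertase gene of the constitutive pathway, at 0.13 (SE 0.03). Of 19 genes of dense-core vesicle formation and release, 2 were higher and 3 lower in DBA/2J, among them Rab3c, a vesicle GTPase gene, at -0.36 (SE 0.03), Rab2a at 0.14 (SE 0.02), Eipr1, which encodes a protein of vesicle sorting, at -0.11 (SE 0.02), and Syt7, a calcium sensor gene, at 0.08 (SE 0.03). Median log2 strain differences were 0.05 for the enzymes and 0.00 for the vesicle genes, beside 0.01 over all genes tested.

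Of 21 neuropeptide and neurotrophin precursors, the cargo of these vesicles, 4 were higher in DBA/2J and 5 lower, where 50% of all genes were called, and the median log2 difference was -0.05. Cort, which encodes cortistatin, was at -1.42 (SE 0.08), Penk, the enkephalin precursor, at 0.36 (SE 0.05), Bdnf, the neurotrophin gene, at -0.34 (SE 0.05), and Tac2, the neurokinin B precursor, at 0.45 (SE 0.07). These values are from the edgeR fit, with adjusted p from 3.4e-22 to 1.95e-07. For ethanol over both strains, conditioning over both strains and sex, edgeR called 0 genes of each of the 3 lists and DESeq2 called 0. At an unadjusted p under 0.05 there were 0 for ethanol, 1 cargo gene for conditioning and 3 cargo genes for sex. The median log2 ethanol difference over both strains was 0.03 for the enzymes, -0.02 for the vesicle genes and -0.02 for the cargo genes, beside 0.00 over all genes tested.

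How a gene's estimated counts divided over its transcripts was tested as transcript usage for the 3 members with more than 1 transcript above 5% of the gene's counts. With diffSplice in limma, 0 of these 3 members were called for ethanol, where 1.88% of 9512 genes were, 0 for conditioning (background 0.568%) and 0 for sex (background 1.31%). At an unadjusted p under 0.05 there were 1, 0 and 0 members in these comparisons, and no second tool was run. Vgf was the one: Vgf-201 took 34.2% ± 6.58 of the gene's counts in 32 ethanol libraries and 30.4% ± 7.30 in 31 saline libraries, and Vgf-204 took 60.3% ± 6.25 in ethanol and 63.6% ± 6.845 in saline libraries (SD, limma adjusted p = 0.137). By strain, Vgf-201 stood at 32.5% ± 6.41 in ethanol and 31.6% ± 7.62 in saline libraries of DBA/2J, and at 35.95% ± 6.49 in ethanol and 29.0% ± 6.97 in saline libraries of C57BL/6J. The ranges overlapped in both strains. Scg3 was split between Scg3-201, with 50.6% ± 5.28 in DBA/2J and 46.2% ± 5.45 in C57BL/6J, and a second coding form, with 47.3% ± 5.05 in DBA/2J and 51.8% ± 4.94 in C57BL/6J. Scg2-201 took 62.8% ± 3.16 of Scg2 in DBA/2J and 62.7% ± 4.06 in C57BL/6J.

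Libraries of the same group still differed from each other, and some members moved together. These relations were measured over 63 libraries as deviations of log2 CPM from the mean of the library's group, with p from 100000 permutations of libraries within groups and adjustment over the 45 pairs of members. Libraries share depth, dissection and preparation, which such deviations carry. Title numbers were not kept together in the permutations, so p takes no account of any relation between same-numbered libraries. Of the 45 pairs, 8 passed, 7 with a positive and 1 with a negative correlation. How many pairs of other genes would pass was not counted, so that number is not read as particular to these members.

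Chgb and Pcsk2 were the most closely tied. Pearson's r was 0.872 and Spearman's rho 0.828 (permutation p = 1e-05 each, the smallest these permutations can give, adjusted p = 0.00022 each), and r was 0.831 without the 2 libraries farthest from the median of Chgb. It was 0.868 in round 1 and 0.855 in round 2, and 0.864 in DBA/2J and 0.882 in C57BL/6J. Chga and Vgf had r = 0.654 and rho = 0.662 (adjusted permutation p = 0.00022 each), 0.632 without the 2 farthest libraries, 0.571 and 0.753 in the 2 rounds, and 0.652 in DBA/2J and 0.658 in C57BL/6J.

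Scg5 moved with Scg2, with r = 0.581 and rho = 0.496 (adjusted permutation p = 0.0013 and 0.0051), r = 0.501 without the 2 farthest libraries and 0.602 and 0.586 in the 2 rounds. It also moved with Cpe, with r = 0.578 and rho = 0.553 (adjusted permutation p = 0.00045 and 0.0013), r = 0.595 without the 2 farthest libraries and 0.533 and 0.661 in the 2 rounds. With its client Pcsk2, Scg5 had r = 0.221 and rho = 0.222 (adjusted permutation p = 0.28 and 0.3), which did not pass. Scg5 and Scg2 stood at 0.645 in DBA/2J and 0.486 in C57BL/6J, and Scg5 and Cpe at 0.558 in DBA/2J and 0.621 in C57BL/6J.

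Pcsk1 moved against Chgb, with r = -0.563 and rho = -0.542 (adjusted permutation p = 0.00081 and 0.0019), r = -0.554 without the 2 libraries farthest from the median of Chgb, -0.459 and -0.579 in the 2 rounds, and -0.419 in DBA/2J and -0.717 in C57BL/6J. In the other pairs the median was that of the gene named first. Scg3 and Cpe had r = 0.541 and rho = 0.507 (adjusted permutation p = 0.00045 and 0.0013), 0.533 without the 2 farthest and 0.566 and 0.563 in the 2 rounds. Scg2 and Pcsk2 had r = 0.377 and rho = 0.411 (adjusted permutation p = 0.038 and 0.02), 0.393 without the 2 farthest and 0.516 and 0.287 in the 2 rounds. Pcsk1n and Vgf had r = 0.514 and rho = 0.485 (adjusted permutation p = 0.0078 and 0.0093) and 0.459 without the 2 farthest. That relation stood at 0.192 in round 1 and 0.748 in round 2, and at 0.255 in DBA/2J and 0.786 in C57BL/6J, so it was weak in round 1 and in DBA/2J.

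**Figure D5:**
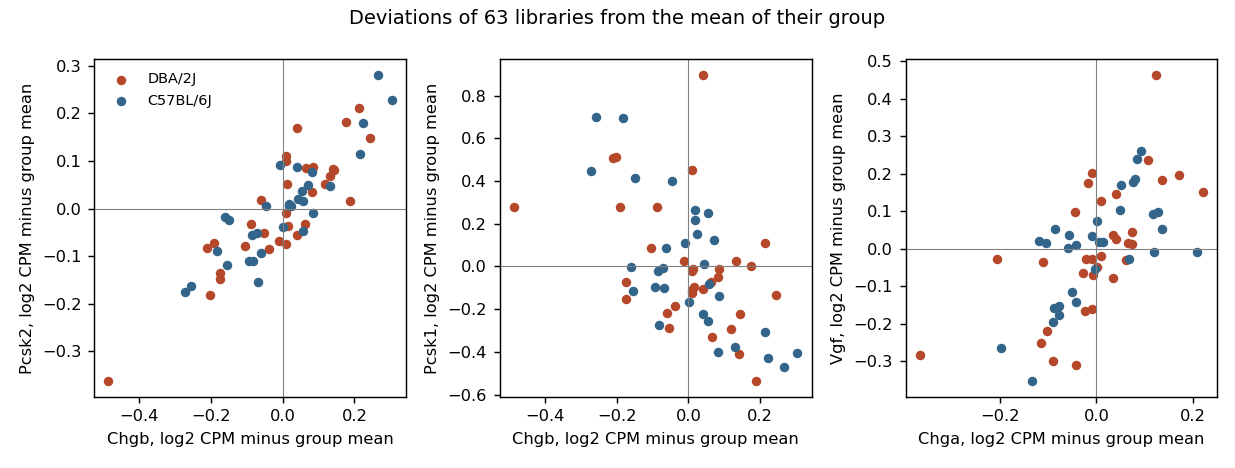
Deviation of log2 CPM from the group mean in each of the 63 libraries for Chgb with Pcsk2, Chgb with Pcsk1 and Chga with Vgf (axes in log2 units). Chgb rises with Pcsk2 (r = 0.872), falls with Pcsk1 (r = -0.563), and Chga rises with Vgf (r = 0.654), in libraries of both strains.

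Marker lists of cell types and subregions moved with members too. Of 100 relations between a member and the mean of a marker list, 42 passed after adjustment over the 100, 23 positive and 19 negative. The share of all genes that would pass was not counted. Chgb followed the 4 CA3 markers, with r = 0.803 and rho = 0.739 (adjusted permutation p = 0.0002 and 0.00025) and r = 0.762 without the 2 farthest libraries. It also followed the 6 dentate gyrus markers, with r = 0.622 and rho = 0.622 (adjusted permutation p = 0.00042 and 0.00033) and r = 0.63 without the 2 farthest. Pcsk1 ran against both, with r = -0.753 and rho = -0.718 for CA3 (-0.731 without the 2 farthest, adjusted permutation p = 0.0002 and 0.00025) and r = -0.688 and rho = -0.541 for the dentate gyrus (-0.595 without them, adjusted permutation p = 0.0002 and 0.001). The 2 genes that moved against each other thus had opposite relations to the same pair of marker lists.

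Pcsk1 followed the 7 interneuron markers, with r = 0.623 and rho = 0.543 (0.556 without the 2 farthest libraries, adjusted permutation p = 0.00042 and 0.00069). Vgf followed the same markers, with r = 0.746 and rho = 0.758 (0.719 without them, adjusted permutation p = 0.0002 and 0.00025). Pcsk2 followed the 5 neuronal markers, with r = 0.771 and rho = 0.762 (0.747 without them, adjusted permutation p = 0.0002 and 0.00025). These relations kept their sign in both rounds: Chgb and CA3 stood at 0.726 and 0.87, Pcsk1 and CA3 at -0.682 and -0.729, Pcsk1 and the dentate gyrus at -0.76 and -0.461, Pcsk1 and interneurons at 0.671 and 0.403, Vgf and interneurons at 0.789 and 0.651, and Pcsk2 and neuronal markers at 0.757 and 0.791.

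Choroid plexus markers were lower where most members were higher. The correlation passed for 9 of the 10 members, all negative, and Pcsk1 was the exception (r = 0.035, rho = 0.103, adjusted permutation p = 0.88 and 0.59). Scg5 had the lowest value, with r = -0.586 and rho = -0.587 (adjusted permutation p = 0.00042 and 0.00033), r = -0.53 without the 2 farthest libraries and -0.708 and -0.48 in the 2 rounds. Scg5 also ran against the 4 thalamus markers, with r = -0.534 and rho = -0.525 (-0.487 without the 2 farthest, adjusted permutation p = 0.0008 and 0.0017), and with the neuronal markers, with r = 0.512 and rho = 0.501 (0.442 without them, adjusted permutation p = 0.0045 and 0.0032). Of the 10 members, 7 passed for neuronal markers and 5 for CA1, all positive, 4 for interneurons, all positive, and 4 for thalamus, all negative. Both members that passed for microglia were positive, Scg3 at 0.59 and Cpe at 0.473, and both that passed for oligodendrocytes were negative, Pcsk2 at -0.543 and Scg2 at -0.465. For astrocytes 1 member passed with a positive and 2 with a negative value. How many of all genes would pass for any of these lists was not counted. These numbers of members are therefore not read as particular to them. The part of tissue composition in the relations between members was not tested.

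Among 14145 genes with a mean log2 CPM above 1, the 3 genes whose deviations were most like those of each member are given as a description, with Pearson's r over the 63 libraries. For Scg5 they included Ensa (0.816) and Tomm20 (0.781). For Pcsk2 they were Sort1 (0.885), Scn8a (0.87) and Pcdhac2 (0.868), and for Pcsk1 they were Necab1 (0.883), Gria4 (0.865) and Cobl (0.862). Pcsk1n went with Abhd17a (0.913), Hspbp1 (0.885) and Mllt1 (0.879), and Cpe with Adk (0.739), Slc25a4 (0.692) and Hapln1 (0.687). Among the granins, Chgb went with Camk1d (0.919), Prkce (0.896) and Nell2 (0.885), Vgf with Prkar1b (0.83), Tubb3 (0.828) and Clstn3 (0.828), and Chga with Magee1 (0.798), Pnmal2 (0.783) and Rangap1 (0.776). Scg2 went with Nars (0.752), Tmx4 (0.746) and Btbd10 (0.736), and Scg3 with Slc1a3 (0.778), Asrgl1 (0.755) and Ahcyl1 (0.68). Tubb3 and Slc1a3 are themselves among the neuronal and astrocyte markers used here.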

How the data were processed

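Dorsal hippocampus RNA was taken up in RNAlater, extracted with Trizol and RNeasy columns, made into TruSeq Stranded mRNA libraries and sequenced as 75 nt single reads on a NextSeq, per the labels' protocols. The authors deposited gene counts and, in a second table, estimated counts per transcript, which were rounded before use. The submitters' processing notes name fastp, HISAT2, featureCounts, Salmon, DESeq2 and GRCm38, with no versions given in the sources used here. GRCm38 derives from C57BL/6J, and its effect on DBA/2J reads was not tested.

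Groups came from strain, sex, conditioning and drug in the labels. Genes were named by GENCODE M21. Counts were fitted with edgeR 4.0.16 (R 4.3.3), with 1 coefficient per group, TMM scaling, a minimum count of 10 in filterByExpr, quasi-likelihood tests and Benjamini-Hochberg adjustment over all 19974 genes tested, called at 0.05. Standard errors are the log2 difference divided by the root of F, and intervals are 1.96 of them (95%). Log2 CPM used a prior count of 2. For transcript usage, voom and diffSplice (limma 3.58.1) were run on transcripts with 10 counts in 3 libraries and 5% of their gene's counts. Transcripts outside the annotation held 1.196% of the estimated counts. Depth ranged from 21027659 to 61631742 counts per library.

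In simulated data for ethanol over both strains on 19974 genes, 82.1% of changes of log2 0.3, 95.5% of 0.6 and 100% of 1 were recovered, with 3.14% false calls. The usage step, on 9512 genes, recovered 100% of changes of log2 1, with 4.76% false calls. Within a step every simulated gene had the same dispersion, with no effect of round, title number or tissue composition. Usage changes were placed only in genes whose transcripts all had high counts. In the real libraries the within-group SD of log2 CPM ran from 0.07 for Cpe to 0.35 for Pcsk1. The rates hold for the simulated setting and are not the power or error of these data.

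The members and all lists were chosen with earlier results of these data known. Named genes were the members, the 3 genes most like each (1 of them, for Scg5, is not reported here), the nearest tested genes beside Scg5, and up to 4 called genes of each list by smallest p. Alternatives were DESeq2 1.42.0, other scaling, no filter, transcript sums, each strain or round of titles alone, a choroid plexus covariate, a block by title number, a transcript filter of 10%, other deviations and leaving out each library.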

Additional observations from a re-analysis of the deposited data

Results flagged for a closer look

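In 14 of 150 sets of 4 libraries, 1 gene in 1 group each, the highest or lowest library stood apart from the other 3 by more than Dixon's 95% critical value. Chance gives about 1 in 20 such sets. Values are CPM.

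Pcsk1 had 4 of the 14, each a highest library in an ethanol group: 26.99 in a DBA/2J male noFC library (next 17.29), 32.6 in a DBA/2J female FC library (next 22.15), 22.94 in a DBA/2J female noFC library (next 18) and 27.04 in a C57BL/6J male noFC library (next 14.79). Scg5 had 405.2 in a DBA/2J female FC ethanol library (next 357.5) and a lowest value of 94.55 in a C57BL/6J male FC ethanol library (next 107.8).

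Chgb had a lowest value of 397.5 in a DBA/2J female noFC saline library (next 610.3), which was also the lowest of all 32 DBA/2J libraries for Chga, Pcsk2 and Vgf. Chgb had a highest value of 742.6 (next 576.5) and Pcsk1n one of 534.7 (next 420.9) in the same library, of C57BL/6J females with FC and saline.

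Chga had 114.5 in a DBA/2J female noFC ethanol library (next 104.8) and a lowest value of 88.31 in a DBA/2J female FC saline library (next 106.4). Scg2 had 195.9 in a DBA/2J male noFC ethanol library (next 159.9), and Pcsk2 had 231.7 in a DBA/2J female noFC ethanol library (next 211.4). Vgf had a lowest value of 159.4 in a C57BL/6J female noFC ethanol library (next 180.0).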

How the results depend on the processing

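The log2 strain difference of Scg5 lay between 1.67 and 1.71 under the alternatives and between 1.69 and 1.71 when each library was left out. In the 11 tested comparisons 0 members were called under any alternative run (1010 values, of which 102 changed sign) and 0 with any library left out (6930 values, 351 sign changes). With deviations from the mean of strain, sex and title number, r fell to 0.855 for Pcsk1n with Abhd17a, 0.773 for Pcsk1n with Mllt1, 0.546 for Scg2 with Btbd10 and 0.645 for Scg3 with Slc1a3. For Scg5, Scg2, Scg3, Chga and Pcsk2, the 3 most similar genes under those deviations were all different ones. Of the 8 pairs of members that passed, 1 moved by over 1.5 times, Scg2 with Pcsk2, which stood at 0.59 instead of 0.377. Among the 37 other pairs 9 changed sign, and Scg2 with Chgb stood at 0.574 instead of 0.26 and Scg5 with Chgb at 0.425 instead of 0.255. The cause was not tested.

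Counts over all genes moved more. Ethanol over both strains gave 109 calls, 66 with no filter and 11 and 34 in the 2 rounds. Ethanol in DBA/2J gave 59, 33 with no filter, 27 with DBA/2J fitted alone, 15 in round 2 and 107 with DESeq2. Ethanol in C57BL/6J gave 18, 0 and 1 in the 2 rounds, and 10 without 1 female FC saline library, the one highest in Chgb. The strain difference in the ethanol effect gave 2, 0 in each round, 6 with DESeq2, and 0 to 5 with 1 library left out (0 without a C57BL/6J female FC ethanol library, 5 without a DBA/2J female noFC saline library). Conditioning over both strains gave 4, 7 with the choroid plexus covariate, 8 with DESeq2 and 0 in each round. Conditioning in C57BL/6J gave 0, 1 with that strain fitted alone, 2 with the covariate, 6 with DESeq2 and 4 without 1 male FC ethanol library, and in DBA/2J it gave 0, and 1 without 1 male noFC ethanol library. The strain difference between males and females gave 0, 1 with transcript sums, 3 with DESeq2 and 2 without 1 DBA/2J male FC saline library. Sex gave 40, and 17 and 23 in the 2 rounds. Usage calls fell to 98 for ethanol, 19 for conditioning and 75 for sex with the 10% filter.

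Title numbers are shared between groups. The 93 pairs of same-numbered libraries had correlations of -0.523 to 0.48 (median 0.04), 32 of them over 0.1. The 279 pairs of unlike number in the same strain and sex had -0.554 to 0.582 (median -0.01), 73 of them over 0.1. The labels do not give the meaning of the numbers, so they were not taken to pair libraries. As a hint from the data and not the design, 29 of 63 libraries correlated best with their own number of the 4 compared, where 15.8 would with no relation. Each number occurred in a single strain and sex, so no strain or sex comparison could be blocked by it. The p-values of those comparisons take no account of any relation between same-numbered libraries. With title number as a replicate block, 0 members were called in the ethanol and conditioning comparisons. Scg5 in DBA/2J stood at -0.07 for ethanol (edgeR adjusted p = 0.473), and all-gene ethanol calls were 155 over both strains, 109 in DBA/2J, 21 in C57BL/6J and 4 for their difference. Usage calls under the block were 79 for ethanol and 2 for conditioning.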
